A study of Mus musculus with 27 samples.

Results

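The transcripts of 10 genes that rebuild chromatin and copy DNA methylation behind the replication fork were followed in the livers of 27 mice. The genes are Uhrf1, Dnmt1, Hells, Ezh2, Hat1, Chaf1a, Chaf1b, Asf1b, Atad2 and Suv39h1. They were chosen by name, as the rows of the count table whose Ensembl identifier carries the symbol in GENCODE, so they are 10 of 55414 listed genes. Earlier results of these data were known when they were chosen. The share of all tested genes beside a count is therefore a description and not a test. All 10 passed the low-count filter (10 counts or more on average over the libraries) and were among the 14114 genes tested.

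The mice were female Balb/c animals, 8 weeks old, and bulk RNA of whole liver was sequenced after 2 weeks. CCl4, a hepatotoxin that kills pericentral hepatocytes and is followed by regeneration and scarring, was injected intraperitoneally. 4-methylumbelliferone (4MU), an inhibitor of hyaluronan synthesis, was given daily by gavage, and siRNA in lipid nanoparticles (LNP) was given into the tail vein, at 1 mg/kg first and 0.5 mg/kg later, against Has2 (siHAS2-LNP) or against luciferase, which mice lack (siLuc-LNP). Both treatments began before the first CCl4 injection. There were 4 control mice, 3 with 4MU, 3 with siLuc-LNP and 3 with siHAS2-LNP. Among mice with fibrosis, 2 had CCl4 alone, 4 had CCl4 + 4MU, 4 had CCl4 + siLuc-LNP and 4 had CCl4 + siHAS2-LNP. Control animals received vehicle. The labels give separate mice and no batch.

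Each round of DNA replication strips nucleosomes from the parental strands and leaves the daughter strands unmethylated. UHRF1 recognises hemimethylated CpG sites and histone H3 and recruits DNMT1, which restores the methyl groups, while HELLS (LSH), a remodelling ATPase, opens nucleosomal DNA for this maintenance. New histones are acetylated by HAT1, handed on by ASF1 and deposited by CAF-1, whose large subunits are CHAF1A and CHAF1B. EZH2 and SUV39H1 write repressive histone methylation, and ATAD2 is an ATPase with a bromodomain that binds newly made, acetylated chromatin. Adult liver is mostly quiescent and holds little of this machinery, and hepatocytes that re-enter the cell cycle after injury transcribe it again.

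Total counts were 7044386 to 29425937 per library, the lowest in CCl4 + siHAS2-LNP mouse 4, and a floor of 3 counts stood for 0.102 to 0.426 counts per 1000000 (CPM). This floor covers counting error only. Has2 had 0 counts in 25 libraries and at most 2 in any, so the siRNA target could not be read at this depth. Hepatocyte markers identified the tissue, with Alb between 749455 and 4224476 counts in every library. In CCl4 mouse 2 all 10 genes had their highest level of the 27 mice, and in CCl4 + siLuc-LNP mouse 4 all 10 had their group's highest level, so the calls that change without either mouse are given beside the results. In bulk tissue, fewer cells of a type and less RNA per cell cannot be told apart.

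On GRCm39, the maintenance genes are Uhrf1 (ENSMUSG00000001228, chr17:56610275-56630489, plus strand), Dnmt1 (ENSMUSG00000004099, chr9:20817945-20871184, minus strand) and Hells (ENSMUSG00000025001, chr19:38919359-38960047, plus strand). The chaperone and acetyltransferase genes are Chaf1a (ENSMUSG00000002835, chr17:56347303-56379289, plus strand), Chaf1b (ENSMUSG00000022945, chr16:93680768-93703003, plus strand), Asf1b (ENSMUSG00000005470, chr8:84681589-84696978, plus strand) and Hat1 (ENSMUSG00000027018, chr2:71218392-71271966, plus strand). The others are Ezh2 (ENSMUSG00000029687, chr6:47507073-47572331, minus strand), Atad2 (ENSMUSG00000022360, chr15:57957440-57998516, minus strand) and Suv39h1 (ENSMUSG00000039231, chrX:7927403-7940999, minus strand). Counts are sums over the exons of each gene, between 4 (Asf1b) and 39 (Dnmt1) in the canonical transcripts.

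The promoters (250 bases before to 50 after the start of the Ensembl canonical transcript, GRCm39) were searched on both strands for the words bound by E2F factors, which switch on S-phase genes. A first word was TTCCCGC, another was spelled TTGGCGC, the third was spelled TTCGCGC and the last was spelled TTGCCGC. The 8-letter words have a further T in front, so every 8-letter match is also a 7-letter match. The windows below are shown because these 5 genes carry such a word. Capitals mark it, and the 30 bases run 5′ to 3′ on the strand of the gene.

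Uhrf1, chr17:56610278-56610307, plus strand: tgctttctcgcTTCCCGCcacagcgccagc
Hells, chr19:38919361-38919390, plus strand: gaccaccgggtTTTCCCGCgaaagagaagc
Ezh2, chr6:47572329-47572358, minus strand: ctcagcgcccaTTCCCGCcaagagctggcc
Ezh2, chr6:47572296-47572325, minus strand: cccccggccggTTCCCGCcatcccgacctc
Ezh2, chr6:47572485-47572514, minus strand: tcctttcagtgGCGCCAAcaaaagtgttgg
Chaf1b, chr16:93680551-93680580, plus strand: tcctccgaggcGCGGGAAtgggattcccag
Atad2, chr15:57998724-57998753, minus strand: ccacGCGCCAAAattccaaacaagacgctg

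In Uhrf1 and Hells the word lies just behind the transcript start, and in the last 3 windows it reads on the opposite strand. Hells and Atad2 each hold 2 matches to the 7-letter words, and only the 8-letter match is shown. A 7-letter word was found in 5 of the 10 promoters, in 14.4% of the 14080 promoters of tested genes and in 4 of 12 promoters of the paralogs and counterparts described further down. The 8-letter words were found in Hells and Atad2, in 3.57% of all promoters and in 0 of the 12. The CHR word of late cell cycle genes (TTTGAA, or with a central C instead TTCGAA) was found in 2 of 10 (16.4% of all), and CCAAT in 6 of 10 (39.2% of all). A match describes the letters of the window and is not a measured site.

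Per kilobase of transcript, Hat1 led the control livers with 4.89 ± 0.738 CPM per kb (SD, n = 4). Ezh2 (2.05 ± 0.242), Suv39h1 (1.95 ± 0.197) and Dnmt1 (1.68 ± 0.244) followed within their spread of one another, and the remaining 6 lay lower, between 0.154 ± 0.0205 (Uhrf1) and 0.695 ± 0.208 (Chaf1b). In the 2 CCl4 livers Hat1 still led with 21.0 ± 10.1 CPM per kb, and Uhrf1, the lowest in control, came next with 14 ± 6.69, and Suv39h1 was last with 4.11 ± 2.2. All 10 genes were higher in CCl4 mouse 2, so this SD holds a shift that the genes share. It does not compare genes within a mouse. In both mice Hat1 led (13.9 and 28.2 CPM per kb), Uhrf1 came next (9.26 and 18.7) and Suv39h1 was last (2.56 and 5.67). The order of the genes between them was not the same in both.

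**Figure D1:**
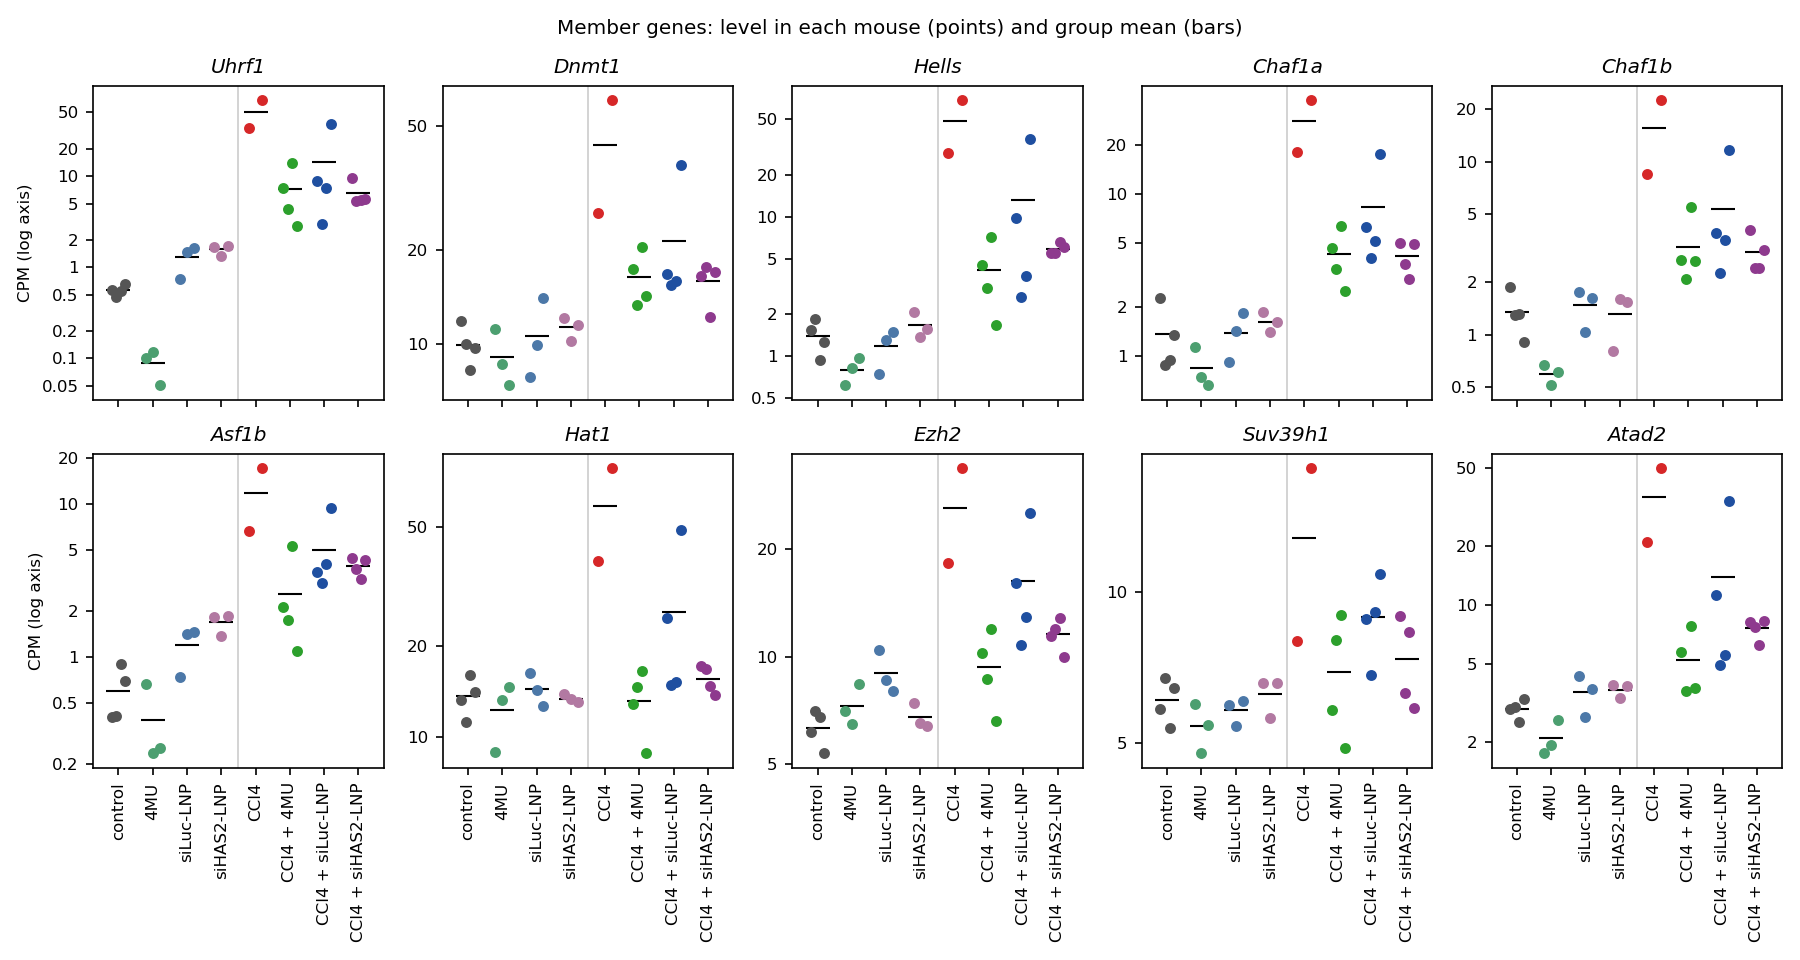
Level of each gene in CPM (log axis) in every mouse of the 8 groups. Points are mice, bars are group means, and the vertical line separates mice without and with CCl4. The red points of the 2 CCl4 mice lie above all 4 controls in every panel, from 7.98 against at most 6.73 CPM for Suv39h1 to 33.7 against at most 0.654 CPM for Uhrf1.

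CCl4 raised all 10 genes in untreated livers, which is the comparison that asks what CCl4 alone does. The largest value was that of Uhrf1, the reader of hemimethylated DNA. Its levels were 0.560, 0.472, 0.555 and 0.654 CPM in the 4 control mice and 33.7 and 68.0 CPM in the 2 CCl4 mice. The groups do not overlap, and the difference was 6.48 on the log2 scale (SE 0.695, adjusted p = 1.35e-07, edgeR). Hells, the remodeller, rose by 5.14 (SE 0.659, adjusted p = 1.94e-06), from 0.940 to 1.83 CPM in control to 28.8 and 68.5 CPM. Dnmt1, the maintenance methyltransferase itself, had 8.24 to 11.8 CPM in control and 26.3 and 60.4 CPM in CCl4, and rose by 2.13 (SE 0.307, adjusted p = 1.03e-05).

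Both CAF-1 subunits rose. Chaf1a had 0.885 to 2.29 CPM in control and 18.2 and 37.9 CPM in CCl4, and rose by 4.36 (SE 0.466, adjusted p = 1.27e-07). Chaf1b had 0.9 to 1.88 CPM in control and 8.47 and 22.6 CPM in CCl4, and rose by 3.53 (SE 0.480, adjusted p = 4.58e-06). Asf1b, the proliferation-linked form of the ASF1 chaperone, rose by 4.26 (SE 0.518, adjusted p = 8.89e-07), from 0.407 to 0.897 CPM to 6.62 and 17.1 CPM. Hat1, which acetylates new histone H4, was well expressed in control with 11.2 to 16.1 CPM and rose by 2.1 (SE 0.328, adjusted p = 2.73e-05) to 38.6 and 78.6 CPM.

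Among the histone methyltransferases, Ezh2 rose by 2.04 (SE 0.256, adjusted p = 1.46e-06), from 5.36 to 7.02 CPM to 18.3 and 33.6 CPM. Suv39h1 moved least. Its levels were 5.34 to 6.73 CPM in control and 7.98 and 17.7 CPM in CCl4, a difference of 1.08 (SE 0.252, adjusted p = 0.00187). The bromodomain ATPase Atad2 rose by 3.58 (SE 0.486, adjusted p = 4.38e-06), from 2.52 to 3.31 CPM to 20.9 and 49.8 CPM. The 10 genes had a median log2 fold change of 3.56, beside -0.023 over all tested genes. Of all tested genes 18% were called higher in this comparison, and 25.7% lay higher in both CCl4 mice than in every control mouse, as all 10 did. Without CCl4 mouse 2 the log2 fold change of Suv39h1 shrank to 0.41 and no longer passed. In that fit the single CCl4 mouse is assumed to vary like the other groups.

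The counts of 3 genes carry an uncertainty of strand. Ezh2 shares 3248 bases with Cul1 on the other strand, which had 1270 counts on average beside 248 for Ezh2. Chaf1a shares 5245 bases with Ubxn6 (157 against 123 counts), and Asf1b shares 384 bases with Gm10644 (27 against 70.9 counts). The library kit keeps the strand, but the strand setting of the counting is not given in the sources used here.

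CCl4 raised some of the genes in each treated arm too. Averaged over the 4 treatments, each with its own controls, all 10 rose, from 0.58 (SE 0.120, adjusted p = 0.000295) for Suv39h1 to 4.54 (SE 0.370, adjusted p = 2.46e-10) for Uhrf1, where 26.3% of all tested genes were called higher. All 10 passed the test with any single mouse left out.

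Within 4MU-treated mice, CCl4 raised 7 of the 10 genes (13.2% of all tested genes were called higher), and for the same number the groups do not overlap (18.3% of all tested genes on the higher side). Uhrf1 had 1, 2 and 3 counts in the 3 mice given 4MU alone (0.0506 to 0.117 CPM), which is the floor. With CCl4 it had 2.81, 4.39, 7.4 and 14 CPM, and the mean of these was 50.7 times the floor of 3 counts. This fold leaves out the spread between mice. The log2 difference of Uhrf1 was 6.19 (95% interval 4.26 to 8.12, adjusted p = 3.57e-05, edgeR). Asf1b rose by 2.76 (SE 0.566, adjusted p = 0.000962), Chaf1b by 2.45 (SE 0.524, adjusted p = 0.00139), Hells by 2.36 (SE 0.695, adjusted p = 0.0157) and Chaf1a by 2.33 (SE 0.488, adjusted p = 0.00115). Atad2 (1.34, adjusted p = 0.0472) and Dnmt1 (0.86, adjusted p = 0.0350) passed narrowly. Hat1 had 8.91 to 14.6 CPM without and 8.79 to 16.6 CPM with CCl4, a difference of 0.11 (95% interval -0.53 to 0.74). Ezh2 (0.36, -0.14 to 0.85) and Suv39h1 (0.36, -0.12 to 0.85) did not pass either. The count fell to 4 without 4MU mouse 2 or without CCl4 + 4MU mouse 3, whose levels were the highest of its group for all 10 genes.

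Within siLuc-LNP mice, CCl4 raised 9 of the 10 (13% of all tested genes). The groups do not overlap for 9 (13.7% of all tested genes). Hells had 0.744 to 1.49 CPM without and 2.66, 9.72, 3.78 and 36.3 CPM with CCl4, and rose by 3.46 (SE 0.676, adjusted p = 0.000551). Uhrf1 rose by 3.45 (SE 0.651, adjusted p = 0.000393), from 0.744 to 1.63 CPM to 8.82, 2.97, 7.32 and 37.4 CPM. For both genes mouse 4 stands far above the other 3 CCl4 + siLuc-LNP mice, which still lie above every siLuc-LNP mouse. Suv39h1 did not pass (0.62, adjusted p = 0.0571). Without mouse 4 the count was 6 (11% of all tested genes were called higher). Dnmt1 (0.62, adjusted p = 0.0843), Ezh2 (0.59, adjusted p = 0.0606) and Hat1 (0.38, adjusted p = 0.319) no longer passed.

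Within siHAS2-LNP mice, 2 of the 10 passed (7.74% of all tested genes). Uhrf1 had 1.66, 1.32 and 1.73 CPM without and 9.55, 5.32, 5.50 and 5.61 CPM with CCl4, and rose by 2.06 (SE 0.627, adjusted p = 0.0302). Ezh2 rose by 0.77 (SE 0.244, adjusted p = 0.0379), from 6.4 to 7.43 CPM to 10 to 12.8 CPM. Hells had a difference of 1.81 (adjusted p = 0.0625) and Chaf1a of 1.33 (adjusted p = 0.0562), and Dnmt1, Chaf1b, Asf1b and Atad2 had differences of 0.48 to 1.22 (adjusted p from 0.0910 to 0.296). For 8 of the 10 genes every CCl4 + siHAS2-LNP mouse lay above every siHAS2-LNP mouse, as for 15.2% of all tested genes. This count is the least settled of the 4. Leaving out CCl4 + siHAS2-LNP mouse 1 or any siHAS2-LNP mouse left 0, leaving out CCl4 + siHAS2-LNP mouse 2 or 3 left 1, while a fit restricted to these 2 groups gave 7.

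**Figure D2:**
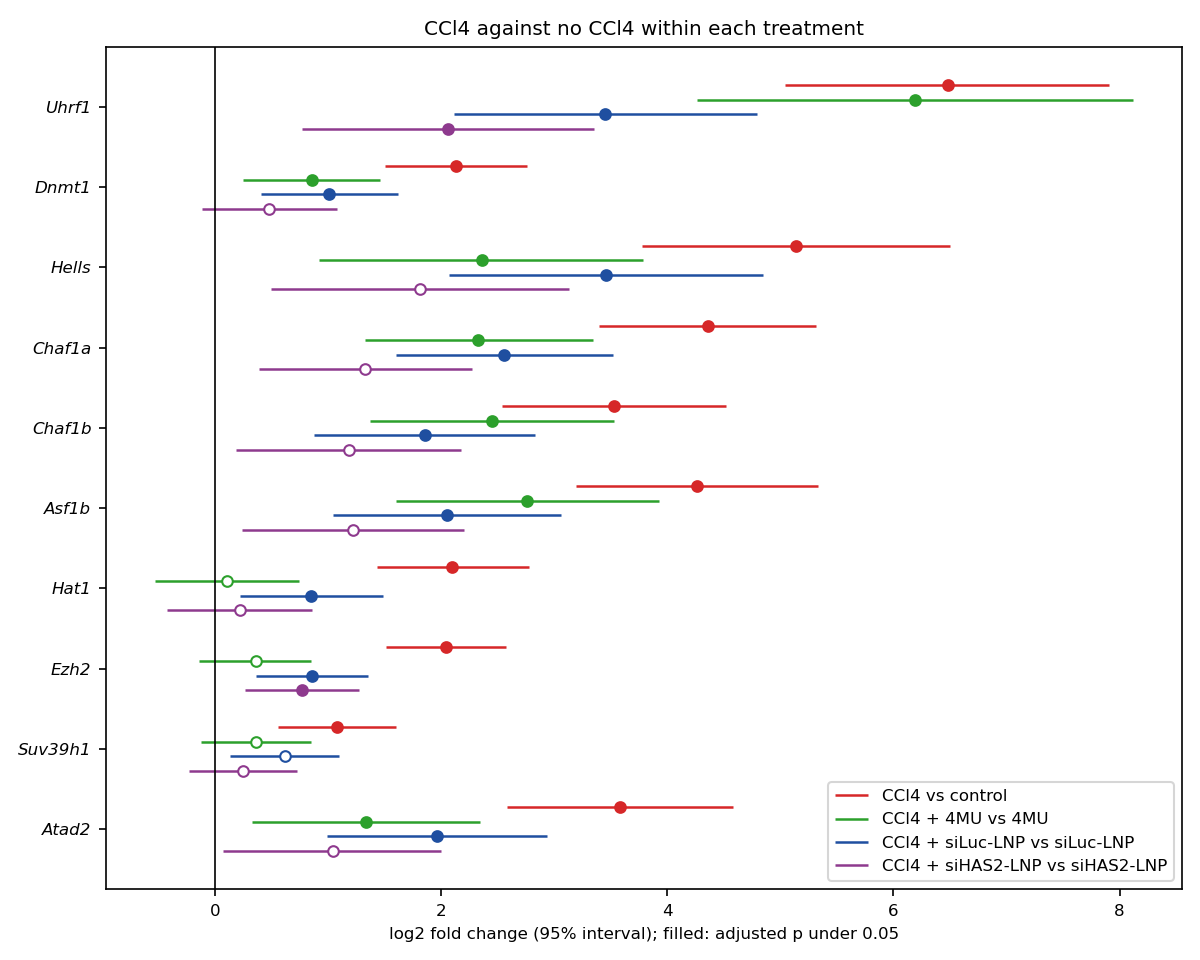
log2 fold change of CCl4 against no CCl4 for the 10 genes in untreated, 4MU, siLuc-LNP and siHAS2-LNP mice, with 95% intervals of edgeR's fit. Filled points passed an adjusted p of 0.05. The untreated values (1.08 to 6.48) lie highest for each gene. The Uhrf1 value in 4MU mice is set against a group at the floor and depends on the fit's prior count.

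Whether the CCl4 effect itself differed between arms was tested by interactions. For 4MU, 2 of the 10 genes passed (2.95% of all tested genes were called lower). The rise of Hat1 was smaller by 1.99 (SE 0.451, adjusted p = 0.0194) and that of Ezh2 by 1.68 (SE 0.352, adjusted p = 0.0127) on the log2 scale than in untreated mice. Atad2 (-2.25, adjusted p = 0.0511), Dnmt1 (-1.27, adjusted p = 0.0684), Chaf1a (-2.02, adjusted p = 0.0704) and Hells (-2.79, adjusted p = 0.0800) did not pass. Further from the threshold were Suv39h1 (-0.72, adjusted p = 0.191), Asf1b (-1.5, adjusted p = 0.240), Chaf1b (-1.08, adjusted p = 0.353) and Uhrf1 (-0.28, adjusted p = 0.944), whose 4MU arm is at the floor. Without CCl4 mouse 2 neither Hat1 (-1.42, adjusted p = 0.187) nor Ezh2 (-1.20, adjusted p = 0.146) passed (0.0496% of all tested genes were called lower). Without CCl4 + 4MU mouse 3 the count was 5, and without CCl4 mouse 1 it was also higher than with all mice.

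For siLuc-LNP against no treatment 0 of the 10 interactions passed in edgeR, with 1 call among all tested genes (0.00709%), although 8 had an unadjusted p under 0.05 (10% of all tested genes). The values lay between -0.46 and -3.03. Without CCl4 + siLuc-LNP mouse 4 the count was 9 (1.22% of all tested genes were called lower). For siHAS2-LNP against siLuc-LNP 0 of 10 passed (0.0142% of all tested genes were called lower), 0 had an unadjusted p under 0.05 (11.4% of all tested genes), and all 10 values were negative, between -0.086 (Ezh2) and -1.65 (Hells). DESeq2 called 0 of 10 in both.

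In fibrotic mice, all 10 genes were lower with 4MU than with CCl4 alone. Treatment began before CCl4, so the question here is whether treated mice given CCl4 differ from mice given CCl4 alone. A fall is a difference between groups of mice. Hells fell by 3.56 (SE 0.606, adjusted p = 0.000783), from 28.8 and 68.5 CPM to 4.52, 3.09, 7.17 and 1.67 CPM. Uhrf1 fell by 2.83 (SE 0.573, adjusted p = 0.00220), Atad2 by 2.75 (SE 0.469, adjusted p = 0.000785) and Chaf1a by 2.72 (SE 0.433, adjusted p = 0.000706). Ezh2 fell by 1.48 (SE 0.254, adjusted p = 0.000826), from 18.3 and 33.6 CPM to 10.2, 8.63, 11.9 and 6.62 CPM. Chaf1b, Asf1b and Dnmt1 fell by 1.41 to 2.26 and Suv39h1 by 0.89 (SE 0.251, adjusted p = 0.0163). Hat1 fell by 2.15 (SE 0.327, adjusted p = 0.000631), from 38.6 and 78.6 CPM to 12.8, 14.6, 16.6 and 8.79 CPM, beside 8.91 to 16.3 CPM in the 13 mice without CCl4. Of all tested genes 10% were called lower here. For 9 of the 10 the groups do not overlap, as for 21.5% of all tested genes on the lower side.

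siHAS2-LNP gave the same count against CCl4 alone, 10 of 10 lower (7.33% of all tested genes), with 9 of 10 not overlapping (18.8%). Hells fell by 3.05 (SE 0.603, adjusted p = 0.00273) to 5.52, 5.52, 6.54 and 6.01 CPM, the most even of the CCl4 groups for this gene. Chaf1a fell by 2.77 (SE 0.440, adjusted p = 0.000669), from 18.2 and 37.9 CPM to 5.01, 3.71, 2.97 and 4.94 CPM. Uhrf1 fell by 2.96 (SE 0.581, adjusted p = 0.00257) and Chaf1b by 2.38 (SE 0.464, adjusted p = 0.00245). The smallest fall was again that of Suv39h1, by 0.79 (SE 0.253, adjusted p = 0.0378). The 4MU and siHAS2-LNP comparisons share the 2 CCl4 mice, so their values are given side by side and are not independent.

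The spread in these fits is shared by all 8 groups, so mice of other groups also enter the calls. The number of calls in both comparisons was smaller without CCl4 mouse 2. Without it, CCl4 + 4MU against CCl4 had 3 of 10 calls (0.893% of all tested genes were called lower in that fit), Hells (-2.84, adjusted p = 0.0448), Hat1 (-1.58, adjusted p = 0.0429) and Chaf1a (-2.13, adjusted p = 0.0411). CCl4 + siHAS2-LNP against CCl4 then had 1 of 10 (0.397% of all tested genes), Chaf1a (-2.17, adjusted p = 0.0457). All 20 differences stayed negative, and Suv39h1 shrank to -0.23 and -0.13. Without CCl4 mouse 1, 10 of 10 passed in both (9.18% and 7.15% of all tested genes).

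siLuc-LNP, the particle control, gave 0 calls of 10 against CCl4 alone in edgeR (0.191% of all tested genes were called lower), although all 10 values were negative and all 10 had an unadjusted p under 0.05 (14.2% of all tested genes). The groups do not overlap for 1, Chaf1a (7.33% of all tested genes). The values lay between -0.53 (Suv39h1, adjusted p = 0.345) and -1.88 (Hells, adjusted p = 0.135), and the lowest adjusted p was 0.0637 (Chaf1a, -1.75, 95% interval -2.63 to -0.88). The CCl4 + siLuc-LNP group holds mouse 4, with 36.3 CPM of Hells beside 2.66 to 9.72 in the other 3. Without mouse 4, 9 of 10 passed (4.36% of all tested genes, Hells -3.15, adjusted p = 0.000576), and without CCl4 mouse 1, 4 of 10 (0.843%). DESeq2 called 2.

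The difference between the 2 siRNAs was tested directly. None of the 10 passed in siHAS2-LNP against siLuc-LNP fibrotic mice in edgeR or DESeq2 (0.305% of all tested genes were called lower), and 7 had an unadjusted p under 0.05 (16.6% of all tested genes). Hells was lower by 1.16 (95% interval -2.25 to -0.084, adjusted p = 0.264), Uhrf1 by 1.12 (-2.16 to -0.075, adjusted p = 0.267) and Chaf1a by 1.02 (-1.81 to -0.22, adjusted p = 0.174), and the groups overlap for all 10 (3.52% of all tested genes did not, on the lower side). Without CCl4 + siLuc-LNP mouse 4 the Hells difference was 0.083 (adjusted p = 0.952) and that of Uhrf1 0.014 (adjusted p = 0.991). 4MU against siHAS2-LNP in fibrotic mice gave 0 calls of 10 in both tools (1.22% of all tested genes were called), with differences between -0.60 (Asf1b, 95% interval -1.46 to 0.26) and 0.13 (Uhrf1, -0.92 to 1.17) and no unadjusted p under 0.05 (18.6% of all tested genes). No gene was without overlap, where 11.8% of all tested genes were.

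**Figure D3:**
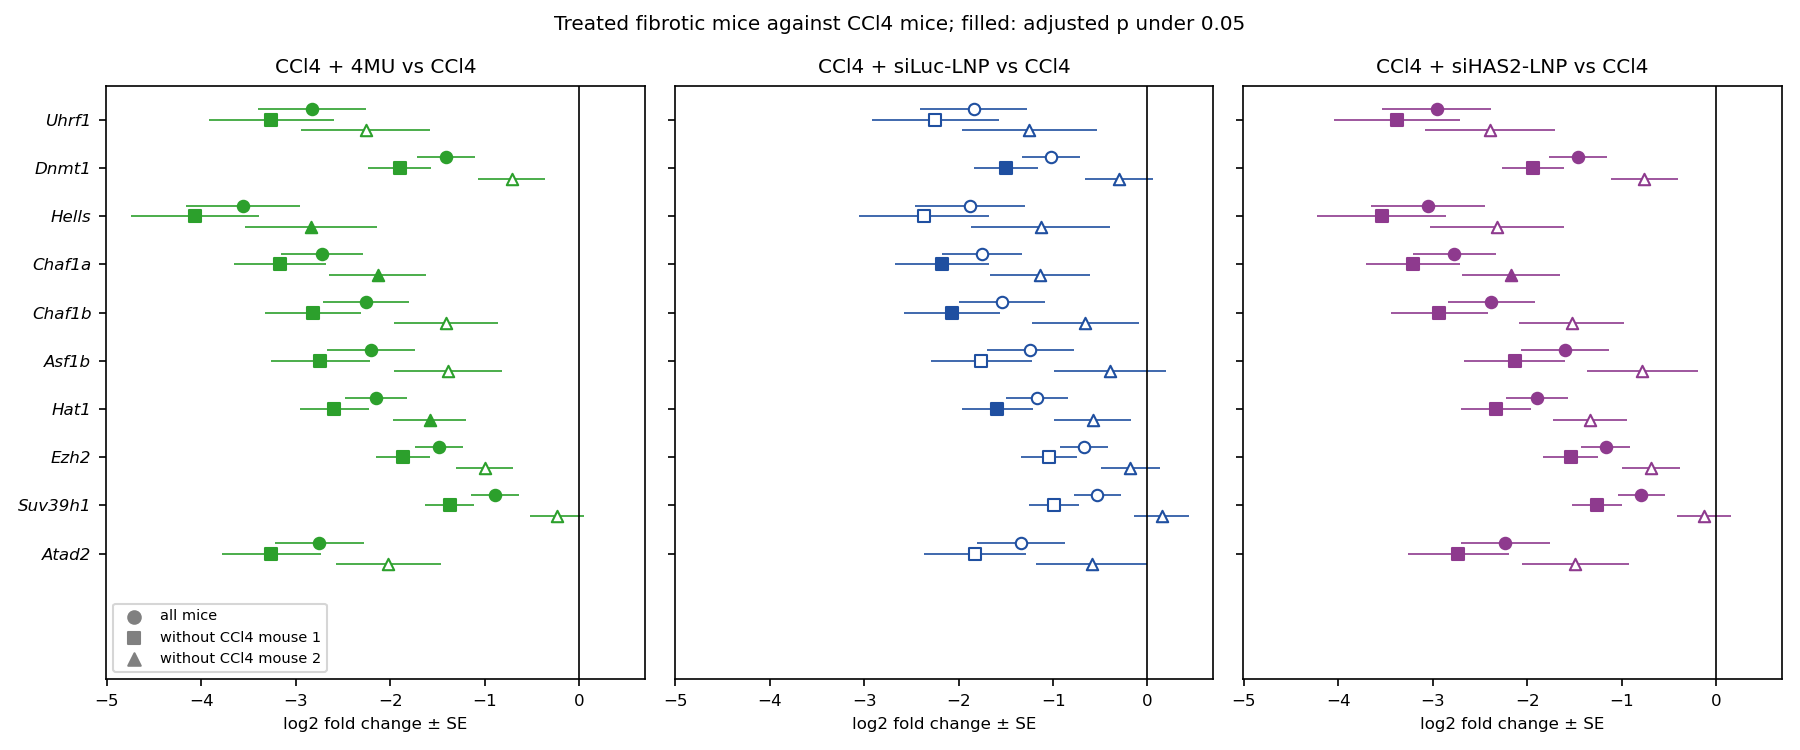
log2 fold change (± SE) of the 3 treated fibrotic groups against CCl4 alone for the 10 genes, with all mice (circles), without CCl4 mouse 1 (squares) and without CCl4 mouse 2 (triangles). Filled symbols passed an adjusted p of 0.05. For 4MU and siHAS2-LNP all circles are filled, and 3 and 1 triangles are. For siLuc-LNP no circle is filled.

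In mice without fibrosis, none of the 10 passed in any of the 3 comparisons in edgeR, where 0.00709%, 0.213% and 0.0425% of all tested genes were called. Unadjusted p-values were under 0.05 for 6.84%, 6.8% and 8.94% of all tested genes, and groups did not overlap for 7.75%, 7.25% and 16.2%. The Uhrf1 level was lowest with 4MU. All 3 mice given 4MU were at the floor (1 to 3 counts) beside 8 to 16 counts in the control mice, whose mean was 3.98 times the floor. The log2 difference of Uhrf1 was -2.54 (95% interval -5.0 to -0.091, adjusted p = 0.708, unadjusted p = 0.0426, edgeR). Chaf1b had 0.508 to 0.666 CPM with 4MU and 0.9 to 1.88 CPM in control, without overlap (-1.18, adjusted p = 0.699, unadjusted p = 0.0390). These were the 2 of 10 genes without overlap for 4MU. With no low-count filter 1 of the 10 passed for 4MU, and DESeq2 called 0. In siLuc-LNP against control 1 gene had an unadjusted p under 0.05, Ezh2 (0.51, adjusted p = 0.709), and in siHAS2-LNP against siLuc-LNP 0 had. The groups do not overlap for Uhrf1 and Ezh2 in the former and for Ezh2 in the latter (8.6, 8 and 10.4 CPM with siLuc-LNP, 6.4 to 7.43 CPM with siHAS2-LNP). Uhrf1 was at 0.744 to 1.63 CPM with siLuc-LNP and 1.32 to 1.73 CPM with siHAS2-LNP, above the 0.472 to 0.654 CPM of control (siLuc-LNP 1.19, 95% interval -0.36 to 2.74).

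Relatives of these genes, or genes that do related work outside replication, were measured beside them, 12 in all and none of them a relative of Hat1. They were Uhrf2, the de novo methyltransferases Dnmt3a and Dnmt3b, Ezh1, Asf1a, Atad2b, Suv39h2, and Hira, Ubn1, Cabin1, Daxx and Atrx, which deposit the replacement histone H3.3. In CCl4 against control 3 of the 12 rose (18% of all tested genes did) and the median log2 fold change was 0.17. Suv39h2 rose by 1.49 (SE 0.472, adjusted p = 0.0172), Dnmt3a by 0.74 (SE 0.219, adjusted p = 0.0118) and Uhrf2 by 0.54 (SE 0.179, adjusted p = 0.0234). Uhrf2 had 26.5 to 31.7 CPM in control and 35.1 and 48.6 CPM in CCl4, so this paralog was present throughout while Uhrf1 was near the floor. Ezh1 had 13.9 to 18.3 CPM in control and 12.7 and 13.8 CPM in CCl4 (-0.25, adjusted p = 0.261), and Asf1a 6.41 to 9.22 and 6.81 and 11.0 CPM (0.20, adjusted p = 0.572). In CCl4 + 4MU against CCl4, Suv39h2 (-1.56, adjusted p = 0.0233), Asf1a (-0.80, adjusted p = 0.0292) and Uhrf2 (-0.56, adjusted p = 0.0322) fell and Ezh1 (0.51, adjusted p = 0.0369) rose. Of all tested genes 10% fell and 8.28% rose there. In CCl4 + siHAS2-LNP against CCl4 only Dnmt3b of the 12 passed (0.95, adjusted p = 0.0333), where 7.11% of all tested genes rose and 7.33% fell. With CCl4 mouse 2 left out, 0 of the 12 passed in these 3 comparisons.

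Of 26 tested partners in the same complexes or at the fork, 17 rose and 1 fell in CCl4 against control (18% and 16.1% of all tested genes), with a median of 0.82, and without CCl4 mouse 2, 9 rose and 0 fell (9.76% and 5.5%). Cdca7l, a relative of the HELLS activator, rose by 5.18 (SE 0.484, adjusted p = 1.87e-08) and Lig1, the ligase that joins Okazaki fragments, by 3.28 (SE 0.376, adjusted p = 3.80e-07). At the other end, the dioxygenase Tet2 fell by 0.97 (SE 0.298, adjusted p = 0.0144), and the H3 methyltransferase Ehmt2 had a difference of -0.18 (adjusted p = 0.396). In CCl4 + 4MU against CCl4, 17 of 26 fell (10% of all tested genes) and 0 rose, and in the 4MU interaction 12 of 26 were lower, where 2.95% of all tested genes were. These counts were 4 and 1 without CCl4 mouse 2 (0.893% and 0.0496% of all tested genes). In CCl4 + siHAS2-LNP against CCl4, 11 fell (7.33% of all tested genes, and 1 without CCl4 mouse 2), and Tet2 rose by 1.5 (SE 0.304, adjusted p = 0.00306). Polycomb partners of Ezh2 were among the members of this list, and Eed rose by 0.67 (adjusted p = 0.0196) and Suz12 by 0.77 (adjusted p = 0.0291) in CCl4 against control. Both were picked after their values were seen, and the other Polycomb partners in the list are not given.

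All 20 proliferation genes rose in CCl4 against control (18% of all tested genes did), and not all 20 passed without CCl4 mouse 2. Their median was 4.23 without that mouse and 5.01 with all mice. The range ran from Tk1, a thymidine kinase (0.97, SE 0.278, adjusted p = 0.00909), and E2f8, an E2F repressor (1.78, SE 0.539, adjusted p = 0.0131), to Mcm6, a helicase subunit (6.26, SE 0.561, adjusted p = 1.06e-08), and Bub1, a spindle checkpoint kinase (6.60, SE 0.744, adjusted p = 2.88e-07). In CCl4 + 4MU against CCl4 19 of 20 fell, in CCl4 + siHAS2-LNP against CCl4 14 of 20, and in CCl4 + siLuc-LNP against CCl4 1 of 20, where 10%, 7.33% and 0.191% of all tested genes fell. With CCl4 mouse 2 left out the counts were 2, 2 and 0 (0.893%, 0.397% and 0.0425% of all tested genes), and without CCl4 + siLuc-LNP mouse 4 the last was 10 (4.36%).

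**Figure D4:**
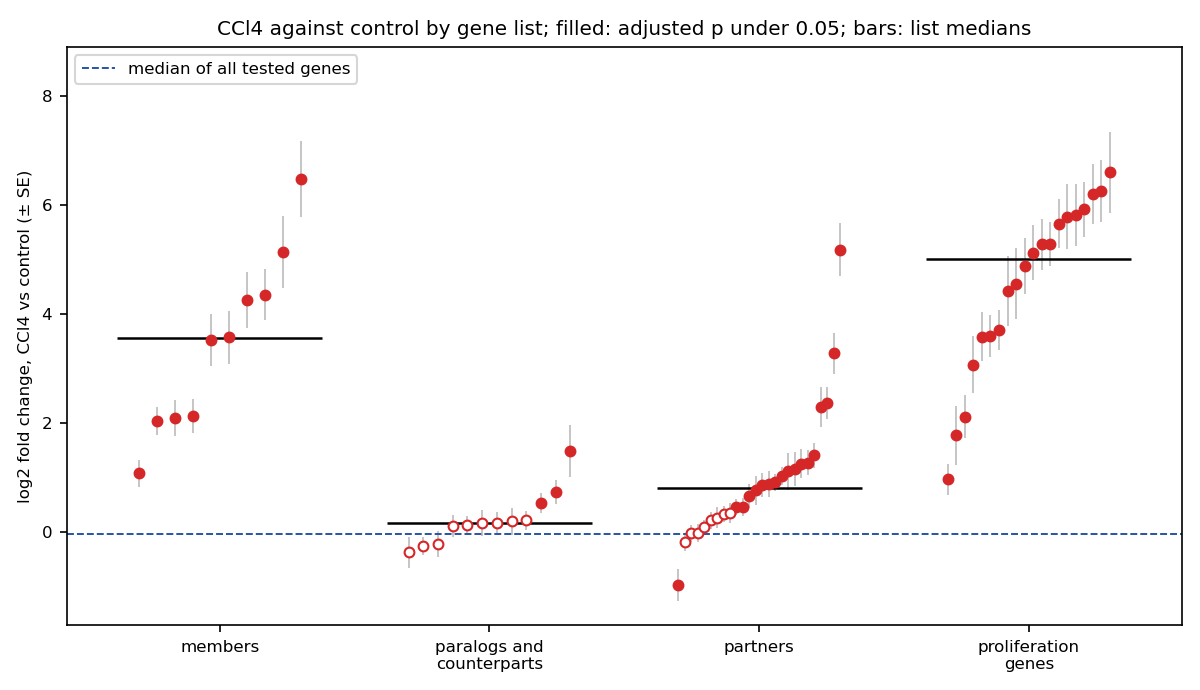
log2 fold change (± SE) in CCl4 against control for the 10 genes, their 12 paralogs and counterparts, 26 partners and 20 proliferation genes. Filled points passed an adjusted p of 0.05, black bars are list medians (3.56, 0.17, 0.82 and 5.01), and the dashed line is the median of all tested genes (-0.023). All points of the first and last lists are filled, and 3 of the 12 counterparts are.

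The 10 genes were also summarised mouse by mouse. The mean of the 10 gene-centred log2 CPM was 2.99 in CCl4 mouse 2, 2.22 in CCl4 + siLuc-LNP mouse 4 and 1.83 in CCl4 mouse 1, and it lay between -0.38 and 0.92 in the other 11 mice given CCl4. It lay between -0.96 and -0.44 in control and LNP mice without CCl4 and between -1.54 and -1.37 in the 3 mice given 4MU alone, the lowest of all. The same mean over the 20 proliferation genes was 3.32, 2.70 and 2.32 in the first 3 mice, and the mean over the 12 counterparts stayed between -0.30 and 0.34 in all 27. Each gene was correlated with the mean of the other 9 over the 27 libraries, with r from 0.823 (Hat1) to 0.974 (Chaf1a). Over the 14 CCl4-treated libraries r was 0.815 (Suv39h1) to 0.976 (Atad2), and over the 13 others it was 0.952 for Uhrf1 but -0.00515 for Ezh2 and 0.175 for Hat1. The libraries share group and depth, so these r describe the data only.

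**Figure D5:**
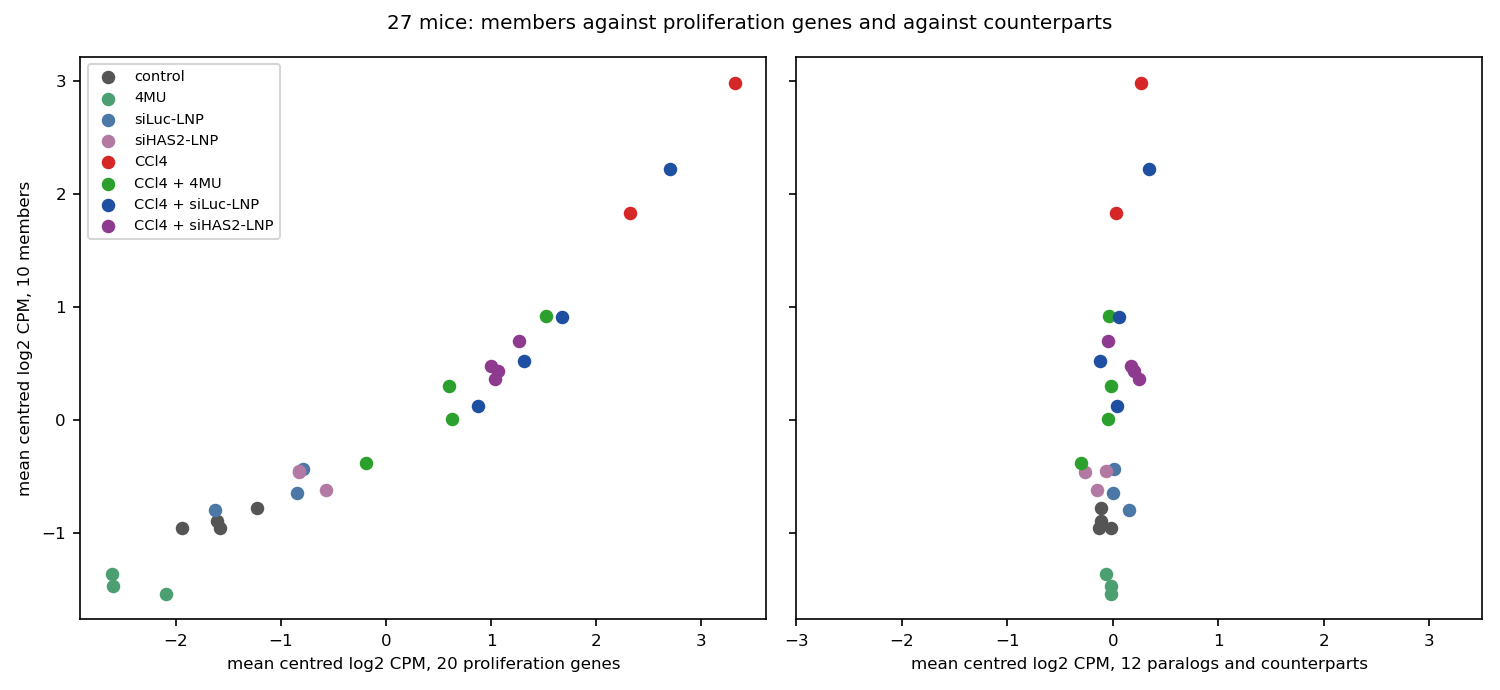
Mean gene-centred log2 CPM of the 10 genes in each of the 27 mice against the same mean of 20 proliferation genes (left) and of 12 paralogs and counterparts (right), coloured by group. The left panel runs from the 3 mice given 4MU alone (-1.54 to -1.37) to CCl4 mouse 2 (2.99), and the right panel stays within -0.30 to 0.34 on its horizontal axis.

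By Pearson correlation of log2 CPM with the mean of the 10 genes, the most alike genes over 27 libraries included Rrm1 (r = 0.984), Slfn9 (0.977), Mcm5 (0.976) and Fignl1 (0.976). Over the 14 CCl4-treated libraries they included Mcm5 (0.996), Firrm (0.988), Rrm1 (0.985) and Mcm7 (0.985). By Spearman correlation 1 of the 5 genes highest over 27 libraries and 2 of the 5 highest over 14 stayed among the highest 5. Rrm1 is the large subunit of ribonucleotide reductase, and Mcm5 and Mcm7 belong to the replicative helicase.

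Markers of other cell types moved beside these genes, in a comparison where 18% of all tested genes rose and 16.1% fell. Of the stellate cell markers 5 of 6 rose in CCl4 against control, and their summed level was 41.6 to 75.9 CPM in control and 403 and 656 CPM in CCl4. Of the macrophage markers 2 of 6 rose, with sums of 345 to 583 CPM in control and 438.8 and 439.5 CPM in CCl4. Of 7 tested lymphocyte markers 2 fell and 0 rose, with sums of 15.9 to 21.4 and 7.35 and 11.1 CPM. Hepatocyte markers summed to 191500 to 226000 CPM in control and to 103000 and 170200 CPM in CCl4, and 2 of 6 fell. Of the 4 cholangiocyte markers 1 rose, with sums of 4.33 to 11.6 and 16.0 and 23.4 CPM, and of 4 endothelial markers 1 rose and 1 fell, with sums of 64.0 to 100.3 and 79.7 and 95.3 CPM. Against CCl4 alone, 3 of 6 stellate, 2 of 6 macrophage, 2 of 4 endothelial and 1 of 4 cholangiocyte markers fell with siHAS2-LNP, where 7.33% of all tested genes fell. With 4MU, 2 of 6 hepatocyte markers rose (8.28% of all tested genes) and no marker of the other lists passed. With CCl4 mouse 2 left out, 2 of 6 stellate, 1 macrophage, 1 cholangiocyte and 1 hepatocyte markers rose and 0 markers fell in CCl4 against control, 1 macrophage marker fell with siHAS2-LNP, and 0 markers passed with 4MU. Of all the markers, Ms4a1 was at 0 counts in 1 library and no other in any. The part of these cell types in the levels of the 10 genes was not tested.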

How the data were processed

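Livers of 27 mice in 8 groups were profiled by RNA-seq. The authors trimmed reads with Trimmomatic 0.39, aligned them to GRCm39 with HISAT2 and deposited raw counts per gene of Ensembl release 105, made by featureCounts in paired-end mode without reads mapping to several places. The HISAT2 version and strand setting are not given in the sources used here. The counts were used as deposited for 55414 genes, of which 54749 matched GENCODE vM39 and 665 did not. With R 4.3.3, the 14114 genes averaging 10 counts or more were normalised by TMM. A single edgeR 4.0.16 quasi-likelihood fit held the 8 groups and no covariate, and p-values were adjusted over all tested genes (Benjamini-Hochberg, threshold 0.05). SE is the absolute log2 fold change over the square root of F, and intervals use the t quantile of the fit's degrees of freedom. CPM uses TMM-scaled totals, and CPM per kb divides by the length of the canonical transcript. A group with at most 3 counts in every library was at the floor. Folds against it set the mean of the other group against 3 counts and leave out the spread between mice.

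Alternatives were DESeq2 1.42.0, limma 3.58.1 (voom with quality weights), DESeq2's size factors, no low-count filter, only the compared groups, the replicate number as a block and each mouse left out. A mouse was left out only for the comparisons that hold its group. The joint omission of CCl4 mouse 2 and CCl4 + siLuc-LNP mouse 4 was chosen after seeing the data. Scripts were tested on simulated data. Python 3.11.15 with numpy 2.4.6, pandas 2.3.3 and matplotlib 3.10.9 made summaries and figures. In 34 pairs of mice of a group, the chi-square per degree of freedom was 15.9 to 458, so no library repeated another of its group. Pairs across groups were not compared.

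The 10 genes and the lists (12 paralogs and counterparts, 27 partners, 20 proliferation genes, cell type markers) were chosen with earlier results of these data known. All genes of the first 2 sets were named, of the others the 2 with the largest and the 2 with the smallest change in CCl4 against control, and the 5 genes most correlated with the 10, of which 1 is not reported here. Other partners and counterparts named were chosen after their values were seen. Tet1 among the partners and Ncr1 among the lymphocyte markers were under the count minimum.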

Additional observations from a re-analysis of the deposited data

Results flagged for a closer look

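In groups of 4 mice, the gap between an extreme mouse and its neighbour was divided by the range of the group for each of the 10 genes. Of 40 such tests 5 passed the critical value, where chance flags about 5%. The 10 genes move together, so these are not separate events. In CCl4 + siLuc-LNP mouse 4 the ratio was 0.939 for Dnmt1 (37.3 against at most 16.7 CPM in the other 3 mice), 0.846 for Asf1b (9.39 against 4.02), 0.834 for Chaf1a (17.6 against 6.27) and 0.830 for Uhrf1 (37.4 against 8.82). In CCl4 + siHAS2-LNP mouse 1 it was 0.932 for Uhrf1 (9.55 against 5.61 CPM), and the other 9 genes passed nothing in that group. The stellate marker sum of the CCl4 + siLuc-LNP group ran from 244.6 to 756.4 CPM and its share of mitochondrial counts from 3.75% to 5.25%. Both highest values were those of mouse 1, and mouse 4 had 478.2 CPM and 4.4%. The part of the marker sum and of the mitochondrial share in these gaps was not tested.

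The CCl4 effect differed between 4MU and untreated mice by the interaction test for Hat1 (-1.99, SE 0.451) and Ezh2 (-1.68, SE 0.352), and for both it no longer passed without CCl4 mouse 2.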

How the results depend on the processing

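The number of the 10 genes called is given for each comparison. Where each mouse was left out, this means each mouse of the compared groups and no mouse of another group. All 10 were called for the averaged CCl4 effect under every alternative run, and in CCl4 against control 9 or 10 were with each mouse left out. With each mouse left out, the count was 4 to 7 in CCl4 + 4MU against 4MU, 6 to 10 in CCl4 + siLuc-LNP against siLuc-LNP, 0 to 2 in CCl4 + siHAS2-LNP against siHAS2-LNP, 3 to 10 in CCl4 + 4MU against CCl4, 0 to 9 in CCl4 + siLuc-LNP against CCl4, 1 to 10 in CCl4 + siHAS2-LNP against CCl4, 0 to 6 in the 4MU interaction and 0 to 9 in the siLuc-LNP interaction. CCl4 + siHAS2-LNP against siHAS2-LNP had 4 calls in DESeq2, 7 in limma-voom, 7 with no low-count filter, 7 with only the compared groups, 7 with both named mice left out and 1 with the replicate block. CCl4 + siLuc-LNP against siLuc-LNP had 4 with only the compared groups. CCl4 + siLuc-LNP against CCl4 had 2 in DESeq2, 6 in limma-voom, 8 with no filter and 3 with both mice left out. With both left out, CCl4 + 4MU against CCl4 had 6, CCl4 + siHAS2-LNP against CCl4 had 5 and the 4MU interaction 0. That interaction had 6 in DESeq2, 6 with no filter and 6 with only the compared groups. With no filter, CCl4 + siHAS2-LNP against CCl4 + siLuc-LNP had 5, 4MU against control 1, the siLuc-LNP interaction 6 and the siHAS2 interaction 1. The cause was not tested. The counts under the other settings that leave out no mouse stayed within 1.5 times.

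The main fit did not treat mice with the same replicate number as paired. Over 83 pairs of mice with the same number the correlation of deviations was -0.32 to 0.293, and 17 were over 0.1. Mice with different numbers were not compared, so these values cannot decide whether the numbers mark pairs. With the replicate block, CCl4 + siHAS2-LNP against siHAS2-LNP had 1 call, CCl4 + 4MU against 4MU had 5, CCl4 + siLuc-LNP against siLuc-LNP had 8 and CCl4 + siHAS2-LNP against CCl4 had 9.

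Over all tested genes the number called moved by more than 1.5 times in many fits. Without CCl4 mouse 2, CCl4 + 4MU against CCl4 went from 2580 to 177, CCl4 + siHAS2-LNP against CCl4 from 2038 to 108, the 4MU interaction from 800 to 20 and CCl4 against control from 4805 to 2154, and with both mice left out these were 586, 352, 130 and 2550. Without CCl4 + siLuc-LNP mouse 4, CCl4 + siLuc-LNP against CCl4 went from 35 to 1062 and the siLuc-LNP interaction from 1 to 247. With each mouse left out, CCl4 + siHAS2-LNP had 4 to 230 calls against CCl4 + siLuc-LNP, 13 to 390 against CCl4 + 4MU and 1026 to 1758 against siHAS2-LNP, and CCl4 + 4MU had 2138 to 3156 against 4MU. The 4MU interaction had 800 calls, beside 1420 in DESeq2, 1386 with no filter and 1308 with only the compared groups. CCl4 + siLuc-LNP against CCl4 had 35, beside 277 in DESeq2, 175 in limma-voom, 427 with no filter, 1 with only the compared groups and 17 with the block. CCl4 + siHAS2-LNP against CCl4 + siLuc-LNP had 154, beside 412, 12, 656, 0 and 12 in the same order. CCl4 + 4MU against CCl4 + siHAS2-LNP had 172, beside 505, 1024 and 975 in the first 3 and 108 with the block. In limma-voom CCl4 + siHAS2-LNP had 1322 against CCl4 (2038) and 3455 against siHAS2-LNP (1812). CCl4 + siLuc-LNP against siLuc-LNP had 1504 with only the compared groups (3418). The comparisons without fibrosis and the siRNA interactions had 1 to 30 calls, 136 to 304 with no filter, 39 to 77 in DESeq2 and 0 to 171 in limma-voom.

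Values that changed sign had not passed the test. Without CCl4 mouse 2 these were Suv39h1 in CCl4 + siLuc-LNP against CCl4 (0.15), in the siLuc-LNP interaction (0.21), and Uhrf1 in the 4MU interaction (0.28), and with both mice left out they were 0.056, 0.12 and 0.32. With each mouse left out they ran from -0.99 to 0.15, from -0.93 to 0.21 and from -0.85 to 0.28. Hat1 in CCl4 + 4MU against 4MU was -0.07 without 4MU mouse 1 and -0.024 without CCl4 + 4MU mouse 3, in a range of -0.07 to 0.26. In CCl4 + siHAS2-LNP against CCl4 + siLuc-LNP, without CCl4 + siLuc-LNP mouse 4, Uhrf1 was 0.014, Hells 0.083, Asf1b 0.12 and Atad2 0.031, and with both mice left out 0.033, 0.11, 0.13 and 0.054. Their lowest values with a mouse left out were -1.47, -1.52, -0.56 and -1.18. In the siHAS2 interaction Ezh2 was 0.034 in limma-voom, 0.18 without that mouse and 0.19 without both, Chaf1b was 0.043 and 0.051 in the same 2 fits, and Atad2 was 0.0045 without both. The lowest values with a mouse left out were -0.25 for Ezh2 and -0.94 for Chaf1b. With 2 CCl4 mice, the spread of that group rests on a single pair. Uhrf1 was at 1 to 3 counts in 4MU mice, so its folds there are set against the floor.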
